A study of Mus musculus with 3 samples.

Results

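The genes of 10 BCL2 family proteins were followed through single-cell RNA sequencing of mouse follicular T cells: the survival genes Bcl2, Bcl2l1 (encoding BCL-XL), Mcl1, Bcl2a1b and Bcl2a1d, the pore-forming effectors Bax and Bak1, and the BH3-only genes Bcl2l11 (BIM), Bbc3 (PUMA) and Pmaip1 (NOXA). They were chosen by name, and all 10 were found among the 32285 genes of the count matrices. Raw unique molecular identifier (UMI) counts of each gene were summed over the annotated cells of each sample, separately for the 2 follicular classes, the helpers (Tfh) and the regulators (Tfr), and for the subclusters given in the authors' annotation, and were divided by all UMIs of the same cells to give counts scaled to the usual CPM unit.

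The spleen cells came from wild-type (WT) mice and from mice in which Siglec-G, an inhibitory lectin receptor, was deleted in B cells (Siglec-G B-cell knockout, BKO), and both genotypes had been immunized with OVA-loaded liposomes and were taken at day 14. The labels used here name no Cre driver, ages or number of animals per library, and the deletion lies in B cells, whereas the sorted and sequenced cells are follicular T cells, so the deletion was not checked in them. WT was deposited as 2 samples, labelled batch 1 and batch 2, and BKO as 1 sample, labelled batch 1. All 5554 barcodes of the WT sample of batch 1 recurred among the 5721 of batch 2, with a correlation of 0.997 between their UMI totals, so the WT samples are the same cells and are called WT run 1 and WT run 2. Each genotype is therefore represented by 1 independent library, no test between genotypes was possible, and intervals below are exact 95% Poisson intervals for CPM and exact 95% Clopper-Pearson intervals for shares of cells, which cover counting error only.

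WT run 1 held 3727 Tfh and 1416 Tfr cells at a median of 4584 UMIs per cell, WT run 2 held 3668 and 1449 at 7527, and BKO held 6389 and 2044 at 6431. The annotation placed 527 of the 5068 WT cells annotated in both runs (10.4%) in different classes in the 2 runs, and 13 annotated BKO barcodes also occurred in WT run 2. T cell markers were at 4408 to 5539 CPM in sum in every sample and class, the list of 7 Tfr genes was at 4894 to 5423 CPM in Tfr against 1933 to 2095 CPM in Tfh cells (Ikzf2, its most abundant gene, at 3032 to 3234 CPM against 1371 to 1599 CPM), and no gene of the T cell, Tfh or Tfr lists was at 0. Foxp3, the defining regulator gene, had a UMI in 100% of Tfr cells of each sample. In Tfh cells the share was 0.402%, 9.95% and 0.908% (run 1, run 2, BKO). Foxp3 was at 331 to 356 CPM in Tfr cells and 0.801, 16.5 and 1.33 CPM in Tfh cells. With a UMI in every Tfr cell, the split may rest on Foxp3 itself, so Foxp3 is no independent check of the classes. The list of 6 CD8 T and NK cell genes summed to 289 and 270 CPM in the WT runs and 49.0 CPM in BKO Tfh cells, with 0 to 2 of its genes at 0, and that of 5 B cell genes to 28.2 to 39.9 CPM in Tfh and 123 to 137 CPM in Tfr cells, with 0 or 1 at 0. A list of 5 cycling genes was at 223, 186 and 102 CPM in Tfh cells. The part of such cells in the values below was not tested.

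BCL2 family proteins set whether the outer mitochondrial membrane stays closed. BAX and BAK form the pore that releases cytochrome c, BCL2, BCL-XL, MCL1 and A1 (the product of the Bcl2a1 genes) hold them in check, and BH3-only proteins such as BIM, PUMA and NOXA bind the survival proteins or activate the effectors. In T cells, cytokines that signal through the common gamma chain are known to raise BCL2 and MCL1, antigen receptor and NF-kB signals are known to raise A1 and BCL-XL, and BIM removes cells deprived of these signals.

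Bcl2a1b and Bcl2a1d need care, because they are near-identical copies. Their transcripts differed at 7 of 817 aligned bases (99.1% identity), and 162 of 411 windows of 90 bases in the last 500 bases of Bcl2a1b, where a 3′ assay reads, occurred unchanged in Bcl2a1d (39.4%). The split of UMIs between both genes, and with the third copy Bcl2a1a, is therefore uncertain. The stretches before their annotated starts (RefSeq, GRCm38.p6; Bcl2a1b at chr9:89199023-89199208 on the plus strand and Bcl2a1d at chr9:88731915-88732100 on the minus strand, each 186 bases) are shown to let the copies be compared. Capitals mark the base that differs and the 6 bases of Bcl2a1b without a partner inside the stretch that both windows share, in which 135 of 136 paired bases were identical.
Bcl2a1b: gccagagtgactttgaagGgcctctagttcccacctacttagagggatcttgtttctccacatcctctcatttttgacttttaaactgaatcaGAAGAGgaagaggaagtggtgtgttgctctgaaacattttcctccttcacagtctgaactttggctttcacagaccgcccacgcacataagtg
Bcl2a1d: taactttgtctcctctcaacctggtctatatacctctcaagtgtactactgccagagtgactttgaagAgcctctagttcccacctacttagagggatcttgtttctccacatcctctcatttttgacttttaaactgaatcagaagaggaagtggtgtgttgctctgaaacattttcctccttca

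The first comparison asked how the family stood in T cells of mice whose B cells lacked Siglec-G. Summed over the 5 survival genes, the level was close in every sample: 836 and 826 CPM in the WT runs and 814 CPM in BKO Tfh cells, and 927, 916 and 904 CPM in Tfr cells. The makeup of that sum differed. Bcl2 gave 25.3% and 25.2% of the UMIs of all 10 genes in WT Tfh cells and 16.7% in BKO, and the 2 Bcl2a1 genes together gave 34.8% and 34.9% in WT and 44.1% in BKO. Tfr cells showed the same order, with Bcl2 at 23.3% and 22.8% against 13.3% and the Bcl2a1 genes at 31.5% and 32.6% against 41.5%. These are shares of captured UMIs, not levels per length of transcript. The closeness of the sums holds for scaling to all UMIs, and scaling by TMM factors raised log2 ratios of BKO to WT by 0.16 in Tfh and 0.11 in Tfr cells. The share of Bcl2 carries a further limit given below: for this gene intron counting and genotype cannot be told apart.

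A gene was called higher or lower in BKO when its mean over the 3 samples reached 20 CPM and BKO lay at least 1.5 times beyond both WT runs. Among 6559 genes measured in Tfh cells 26 were called higher (0.396%) and 161 lower (2.45%), and among 6539 measured in Tfr cells 58 were higher (0.887%) and 157 lower (2.40%). Of the 8 family members measured in Tfh cells 0 were higher and 1, Bcl2l1, was lower. Of the 9 measured in Tfr cells 0 were higher and 1, Bcl2, was lower. Bbc3 in Tfh cells and Pmaip1 in both classes stayed under the minimum. Both calls were lost when the trend of the ratio with intron length was taken off.

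**Figure D1:**
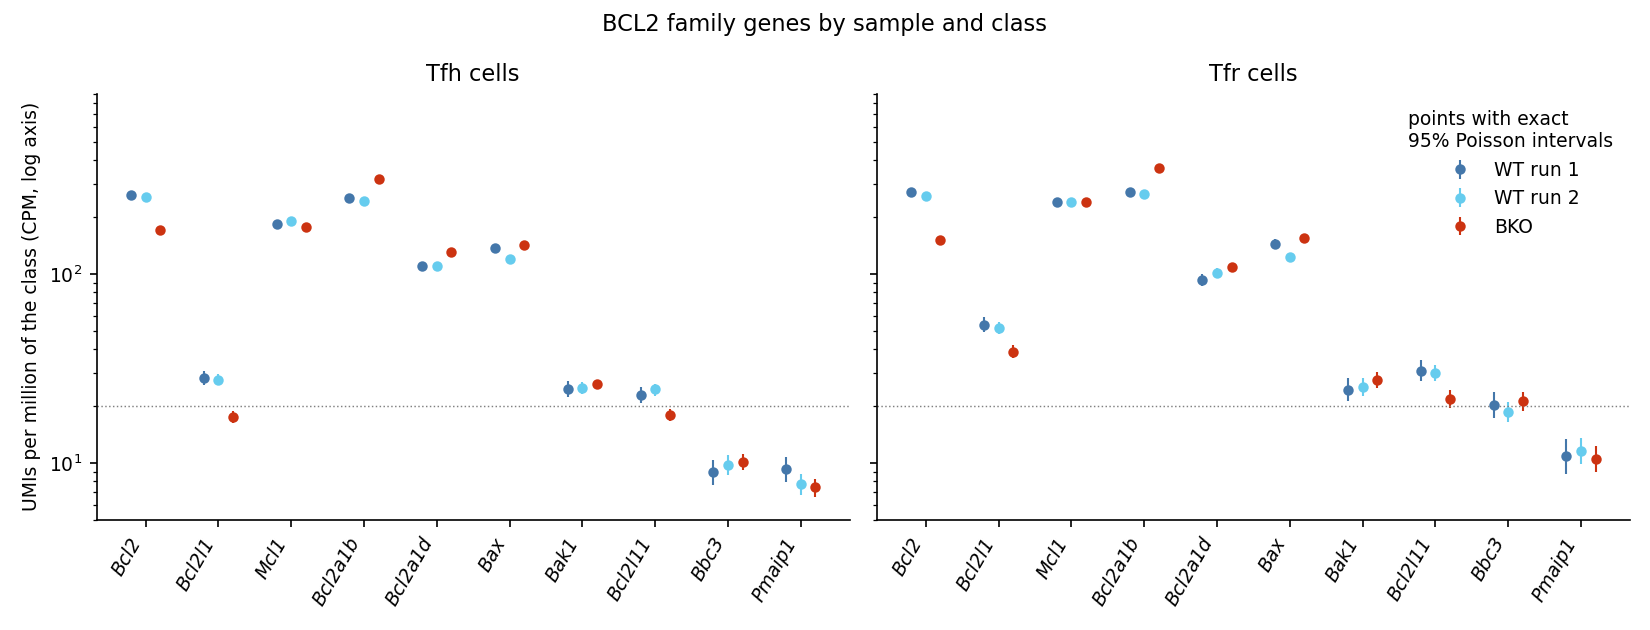
Level of each of the 10 genes in Tfh (left) and Tfr (right) cells in CPM on a log axis, with points for WT run 1, WT run 2 and BKO, bars for exact 95% Poisson intervals and a dotted line at the minimum of 20 CPM. Bcl2 and Bcl2l1 lie lower in BKO, and Bcl2a1b higher, than in either WT run in each class, while the 3 points of Mcl1 lie close together.

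Bcl2, the founding survival gene of the family, had in Tfh cells a level of 263 CPM (interval 256 to 270) in WT run 1, 255 CPM (249 to 261) in WT run 2 and 170 CPM (167 to 174) in BKO. Its Tfr levels were 270 CPM (259 to 281) in run 1, 257 CPM (248 to 266) in run 2 and 152 CPM (145 to 158) in BKO. BKO lay below both runs in each class with no overlap of intervals. The log2 ratio of BKO to the mean of the WT runs, with 0.5 CPM added to each, was -0.60 in Tfh cells, where the distance to run 2 alone (-0.58) kept it just short of the rule, and -0.80 in Tfr cells. Only 2.35% of measured genes in Tfh cells and 0.658% in Tfr cells had a lower ratio.

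Bcl2 (chromosome 1, 106538178 to 106714274, minus strand, GRCm38) carries 166.94 kb of intron, the longest of the 10 genes. Per the file headers the WT matrices came from cellranger 7.0.1, and the BKO files name Cell Ranger 4, programs whose default treatment of intronic reads differs. The setting used was not given in the sources used here. Genes of like intron length had a median ratio of -0.37 in Tfh and -0.35 in Tfr cells, and relative to them Bcl2 was at -0.23 and -0.45. Intron counting and genotype cannot be told apart for this gene.

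Bcl2l1, which encodes BCL-XL, was at 28.2 CPM (25.8 to 30.7) and 27.5 CPM (25.7 to 29.5) in WT and 17.5 CPM (16.2 to 18.7) in BKO in the Tfh cells of the same 3 samples, a log2 ratio of -0.66. Tfr cells held 53.9 CPM (49.0 to 59.1), 52.0 CPM (48.2 to 56.0) and 38.8 CPM (35.8 to 42.1), a ratio of -0.44. BKO again lay below both runs in each class. With 46.5 kb of intron, its ratios after removal of the intron trend were -0.44 and -0.21, and with TMM scaling they were -0.50 and -0.33, and the Tfh value met the rule under neither. It also fell short with WT cells given the same class in both runs only (-0.60) and with 5 CPM added in place of 0.5 (-0.55). Without Tfh subcluster 1 it was at -0.57, short of the rule, and Bcl2 at -0.61 was the 1 member called.

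Mcl1, a short-lived survival protein's gene with 0.971 kb of intron, was level. Its Tfh values were 183, 190 and 177 CPM and its Tfr values 239, 241 and 240 CPM in the same order. The ratios were -0.08 and 0.00. They became 0.08 and 0.12 with TMM scaling and -0.26 and -0.19 with the intron trend taken off, so no direction can be given.

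The Bcl2a1 copies stood on the other side. In Tfh cells Bcl2a1b was at 252 CPM (245 to 259) and 242 CPM (237 to 248) in WT, against 318 CPM (312 to 323) in BKO. The Tfr levels were 272 CPM (261 to 283) and 265 CPM (256 to 274) in WT, against 365 CPM (355 to 374) in BKO. BKO lay above both runs in each class, by log2 ratios of 0.36 and 0.44, short of the rule, or 0.25 and 0.23 with subclusters weighted equally. Its ratio was above that of 97.7% of measured genes in Tfh and 97.3% in Tfr cells. Bcl2a1d was at 109, 110 and 131 CPM in Tfh cells (0.25) and 92.8, 101 and 108 CPM in Tfr cells (0.16), and its Tfr ratio turned to -0.07 when subclusters were weighted equally.

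Neither effector gene moved by the rule. Bax was at 137, 119 and 143 CPM in Tfh cells and 145, 124 and 156 CPM in Tfr cells, and the gap between the 2 sequencing runs of the same WT cells was larger than that between WT run 1 and BKO. Bak1 was at 24.6, 24.9 and 26.1 CPM in Tfh cells and 24.4, 25.3 and 27.4 CPM in Tfr cells, with overlapping intervals.

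Among the BH3-only genes, Bcl2l11 stood lower in BKO: 22.9 CPM (20.8 to 25.2), 24.5 CPM (22.7 to 26.3) and 17.9 CPM (16.7 to 19.2) in Tfh cells, and 30.8 CPM (27.1 to 34.8), 30.1 CPM (27.2 to 33.1) and 21.9 CPM (19.6 to 24.3) in Tfr cells. The intervals of BKO and both runs did not overlap, but the ratios of -0.39 and -0.47 were within the rule's 1.5 times. Intervals that stand apart say little alone. Those of Bax in Tfh cells did so between the 2 runs of the same WT cells (132 to 142 and 115 to 123 CPM). A ratio lower than that of Bcl2l11 was found for 11.1% of measured genes in Tfh and 7.004% in Tfr cells. With 28.5 kb of intron, Bcl2l11 was at -0.27 and -0.35 after the trend was removed. The gene for BIM and that for its binding partner BCL2 thus both lay below their WT levels in BKO, neither past the rule in Tfh cells.
Bbc3 was at 8.91, 9.76 and 10.1 CPM in Tfh and 20.3, 18.6 and 21.1 CPM in Tfr cells, and Pmaip1 at 9.29, 7.69 and 7.41 CPM and 10.8, 11.6 and 10.5 CPM. Neither gene separated BKO from both WT runs beyond counting error in either class.

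**Figure D2:**
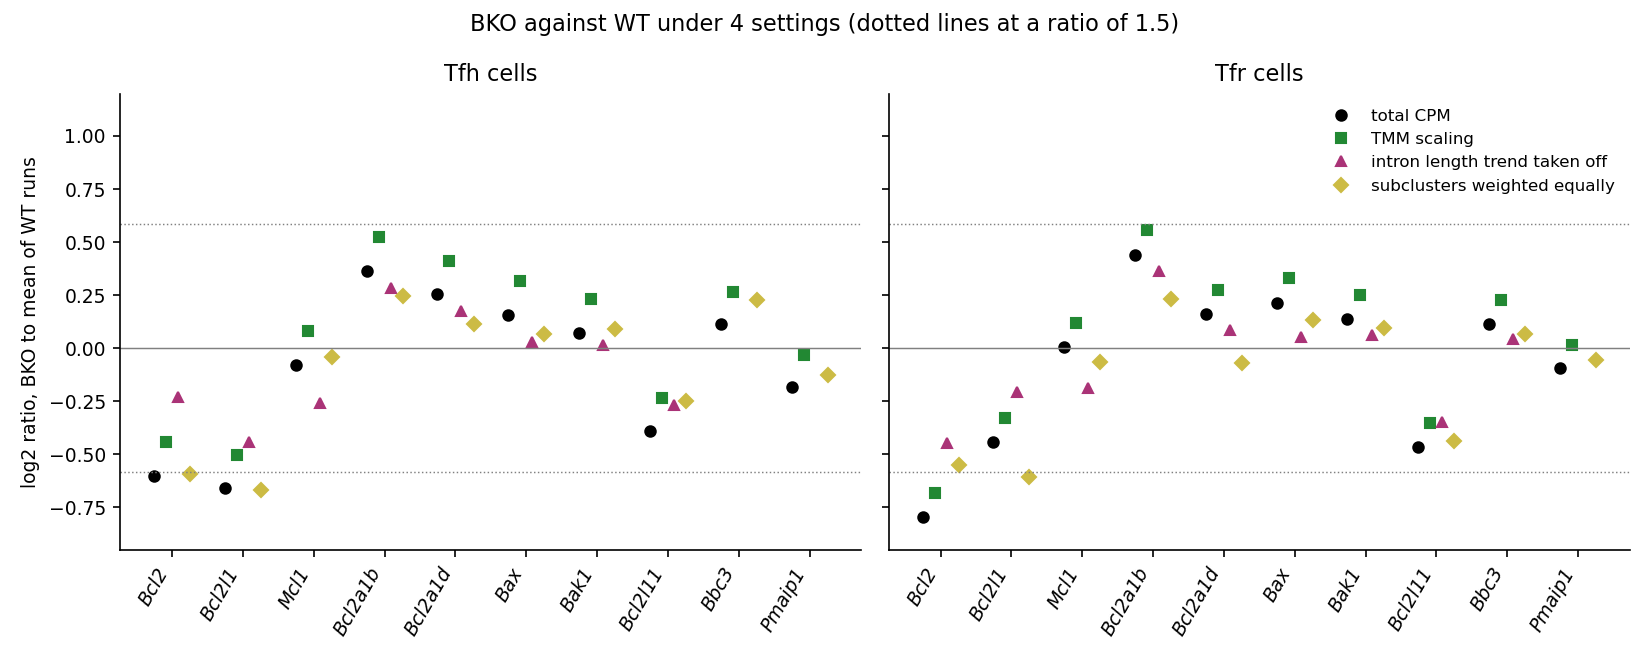
Log2 ratio of BKO to the mean of the WT runs for each of the 10 genes in Tfh (left) and Tfr (right) cells under 4 settings, one symbol each, with dotted lines at a ratio of 1.5. Bcl2, Bcl2l1 and Bcl2l11 stay below 0 and Bcl2a1b above 0 in every setting drawn, and the ratio of Bcl2 in Tfh cells moves from -0.60 to -0.23 with the intron trend taken off.

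Single cells gave the same order. After each cell was thinned to 2500 UMIs, which left out 194, 56 and 66 Tfh cells and 36, 2 and 9 Tfr cells (WT run 1, WT run 2 and BKO in that order, here and below), a Bcl2 UMI was found in 36.1% (34.5 to 37.7) and 36.2% (34.6 to 37.8) of WT Tfh cells and in 24.8% (23.7 to 25.9) of BKO Tfh cells. Before thinning these shares were 49.6%, 60.1% and 44.1%. In Tfr cells they were 37.2%, 37.8% and 25.0% thinned, and 56.1%, 64.5% and 45.7% unthinned. Bcl2a1b went the other way, from 40.0% and 40.6% to 48.5% in Tfh cells and from 43.7% and 39.0% to 49.9% in Tfr cells, thinned. Unthinned, Tfh cells gave 58.0%, 70.4% and 74.4%, and Tfr cells 65.2%, 73.4% and 78.0%.

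Cells without a UMI of any of the 5 survival genes made up 18.8%, 18.1% and 19.6% of thinned Tfh cells and 15.6%, 17.6% and 15.8% of thinned Tfr cells, with overlapping intervals. No cell type lacking these genes was among the annotated cells to give a background share. In the BKO droplets of 1 to 50 UMIs, which hold mostly free RNA, Bcl2 was at 136 CPM and Bcl2a1b at 280 CPM, so free RNA of both was present. WT matrices held called cells only, and the same value was not computed for them.

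The next comparison set Tfr against Tfh cells of the same sample, where counting settings are shared. A gene was called when its mean reached 20 CPM and Tfr lay at least 1.5 times beyond Tfh in the same direction in all 3 samples, which 154 of 6552 genes did upward (2.35%) and 122 downward (1.86%). Of the 8 members measured, 1 was called higher, Bcl2l1, and 0 lower. Its level was 1.90, 1.87 and 2.19 times as high in Tfr as in Tfh cells, taking WT run 1, run 2 and BKO in turn, log2 differences of 0.92, 0.90 and 1.13. Without WT run 2, whose Tfh cells held more Foxp3 UMIs, Bcl2l1 was again the 1 member called.

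Bbc3 had Tfr levels of 18.6 to 21.1 CPM against Tfh levels of 8.91 to 10.1 CPM, differences of 1.15, 0.90 and 1.02, but a mean of 14.8 CPM, under the minimum. Thus the genes for BCL-XL and for PUMA, which acts against it, both stood higher in Tfr cells. Smaller differences in favour of Tfr cells in all 3 samples were found for Mcl1 (0.38, 0.34 and 0.44), Bcl2l11 (0.42, 0.29 and 0.28), Pmaip1 (0.21, 0.56 and 0.47), Bcl2a1b (0.11, 0.13 and 0.20) and Bax (0.08, 0.05 and 0.12). Bcl2a1d was the one member lower in Tfr cells of all 3 samples, by -0.24, -0.12 and -0.27. For Bcl2 the differences were 0.04 and 0.01 in the WT runs and -0.17 in BKO. After thinning they were -0.05, -0.04 and -0.13, so the sign in WT turned with thinning, and the reason was not tested.

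**Figure D3:**
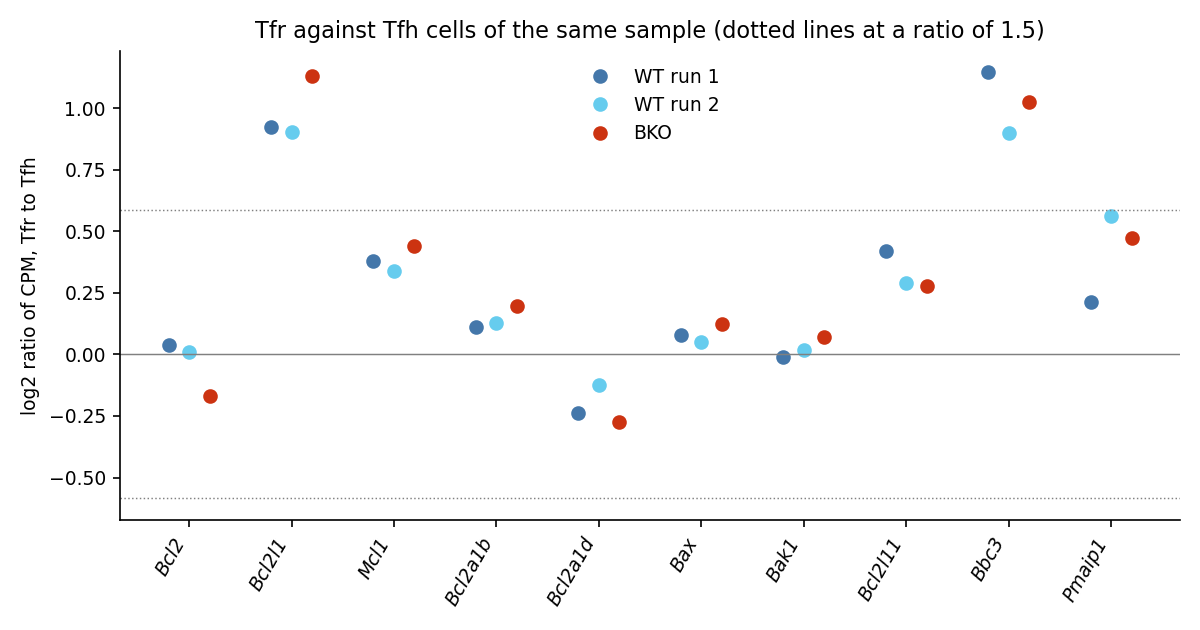
Log2 ratio of CPM in Tfr to Tfh cells of the same sample for each of the 10 genes, with points for WT run 1, WT run 2 and BKO and dotted lines at a ratio of 1.5. Bcl2l1 and Bbc3 lie above the upper line in all 3 samples, and Bcl2, Bcl2a1d and Bak1 have at least 1 point below 0.

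The authors' subclusters split the family further. Levels were read in the 5 Tfh and 5 Tfr subclusters with at least 100 cells in every sample. Since clusters were made from the same cells' genes, these levels describe the clusters and test nothing. Bcl2 spanned a range of 3.06 times in WT run 1, 2.95 in run 2 and 3.15 in BKO, with its highest level in Tfh subcluster 3 (434, 405 and 247 CPM) and its lowest in Tfr subcluster 1 (142, 137 and 78.2 CPM) in each sample. Bcl2l1 spanned 4.35 to 4.49 times, with the highest level in Tfr subcluster 3 in WT (83.3 and 73.7 CPM) and Tfr subcluster 1 in BKO (49.0 CPM). Mcl1 had a narrow range of 1.76 to 1.96 times.

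Bcl2a1b and Bcl2a1d had like patterns over subclusters (Pearson r of 0.86 over 30 values, 10 subclusters in 3 samples, as a description), which their shared sequence would also give. Bcl2a1b reached 561, 537 and 497 CPM in Tfr subcluster 3 and 367, 343 and 461 CPM in Tfh subcluster 3. Its lowest levels were 159, 146 and 183 CPM in Tfh subcluster 4 and 178, 185 and 227 CPM in Tfr subcluster 0. Bcl2a1d reached 174, 191 and 153 CPM in Tfr subcluster 3 and 168, 167 and 191 CPM in Tfh subcluster 3, the highest of the 10 in BKO, and stood at 60.7, 66.8 and 68.2 CPM in Tfr subcluster 0.

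By a rule of 1.5 times beyond the other cells of the class in all 3 samples, Bcl2, Bcl2a1b and Bcl2a1d were called higher in Tfh subcluster 3, where 3.46% of 6540 measured genes were. Bcl2a1b and Bcl2a1d were called higher in Tfr subcluster 3 (3.01% of genes) and lower in Tfr subcluster 0 (1.77%). Bcl2a1b was lower in Tfh subcluster 4 (2.89%), and Bcl2 was lower in Tfr subcluster 1 (1.82%). Bcl2 and the Bcl2a1 genes thus coincided at their peak among the large Tfh subclusters and not at their lowest points. In BKO the smaller Tfh subcluster 6 held more Bcl2, at 372 CPM (334 to 413), than Tfh subcluster 3, at 247 CPM.

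The BH3-only genes had their own pattern. Bbc3 stood at 18.2, 20.7 and 22.9 CPM in Tfh subcluster 1, near its levels of 20.3, 18.6 and 21.1 CPM in Tfr cells. In the other 4 large Tfh subclusters it was at 4.62 to 10.4 CPM, so its Tfh level rests in part on subcluster 1. Without that subcluster the mean difference between Tfr and Tfh cells was 1.48. Among the subclusters plotted, Bcl2l11 was highest in Tfh subcluster 6, which held 181, 177 and 91 cells and is under the size limit in BKO: 61.8 CPM (48.3 to 77.8), 63.6 CPM (52.5 to 76.2) and 50.3 CPM (36.9 to 66.9), or 2.99, 2.86 and 2.86 times the level of the other Tfh cells. The same subcluster held Bcl2 at 387, 356 and 372 CPM, and Bcl2a1b at only 138, 142 and 166 CPM. It was thus high in the genes for BIM and BCL2 and low in A1, and Bcl2 did not lie lower there in BKO than in both WT runs. Nor did it in 2 other small Tfh subclusters, subcluster 5 (205, 197 and 372 CPM, with 11 BKO cells) and subcluster 7 (131, 158 and 184 CPM, with 134 BKO cells).

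**Figure D4:**
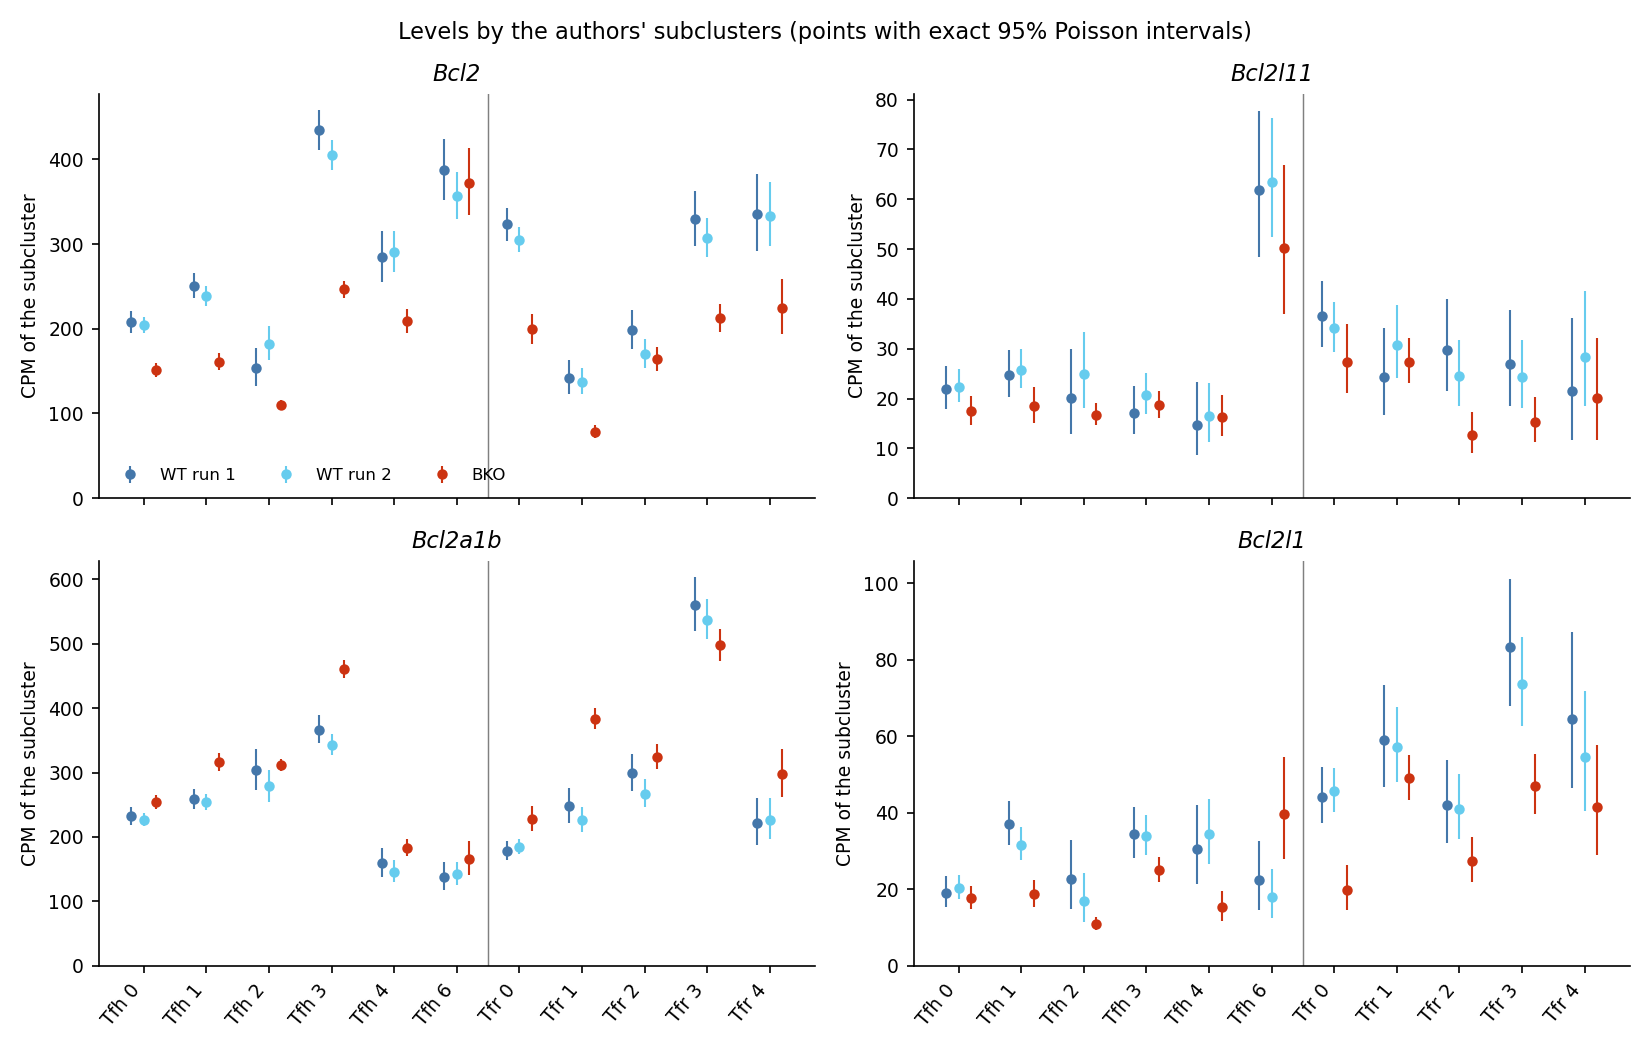
Level in CPM of Bcl2, Bcl2l11, Bcl2a1b and Bcl2l1 in the 5 large Tfh subclusters, Tfh subcluster 6 and the 5 large Tfr subclusters, with points for WT run 1, WT run 2 and BKO and bars for exact 95% Poisson intervals; a vertical line parts Tfh from Tfr. Bcl2 lies lower in BKO in each large subcluster and level in Tfh subcluster 6, where Bcl2l11 peaks.

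The makeup of each class differed between genotypes, so the ratios were read within subclusters too. Tfh subcluster 2 held 6.90% and 7.33% of WT and 34.1% of BKO Tfh cells, Tfr subcluster 1 held 16.2% and 17.1% against 36.3%, and Tfr subcluster 0 held 39.1% and 40.0% against 15.4%. Bcl2 was lower in BKO in all 10 large subclusters, with log2 ratios from -0.83 (Tfr subcluster 1) to -0.16 (Tfr subcluster 2) and a median of -0.59. In Tfr subcluster 2 the BKO interval (150 to 179) overlapped those of run 1 (176 to 222) and run 2 (153 to 188). Weighted equally, the subclusters gave Bcl2 ratios of -0.59 in Tfh and -0.55 in Tfr cells, against -0.60 and -0.80 as the cells lay. The Tfr value was smaller when each subcluster counted equally, and it then no longer met the rule. Tfh subcluster 5 held 9.63% and 9.90% of WT and 0.172% of BKO Tfh cells and subcluster 6 held 4.86%, 4.83% and 1.42%; with both left out the Tfh ratio of Bcl2 was -0.63 and that of Bcl2l1 -0.70.

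Bcl2l1 was also lower in BKO in all 10 large subclusters, from -1.16 in Tfr subcluster 0 to -0.16 in Tfh subcluster 0. In Tfh subcluster 0 the BKO interval (14.9 to 20.8) overlapped those of run 1 (15.4 to 23.3) and run 2 (17.5 to 23.8). BKO also overlapped both runs in Tfr subclusters 1, 2 and 4. Equal weighting gave Bcl2l1 ratios of -0.67 and -0.61. In the smaller Tfh subcluster 6 it stood higher in BKO, with 39.6 CPM (interval 27.9 to 54.6) against 22.3 CPM in run 1 (interval 14.6 to 32.7) and 18.1 CPM in run 2 (interval 12.4 to 25.4), so the BKO interval was apart from run 2 and overlapped run 1. Bcl2l11 was lower in 9 of 10, with a median of -0.35. Bcl2a1b was higher in 9 of 10, from 0.10 in Tfh subcluster 2 to 0.69 in Tfr subcluster 1, and lower by -0.14 in Tfr subcluster 3, where it was most abundant in WT. Bcl2a1d, Bax, Bak1, Bbc3 and Pmaip1 were each higher in 6 and lower in 4 of the 10, and the ratio of Mcl1 stayed between -0.20 and 0.03. The subclusters share their libraries, so these counts are not replicates. The trend with intron length was not taken off within subclusters.

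Il7r encodes the receptor chain for IL-7, a cytokine known to maintain BCL2 in T cells. In thinned Tfh cells a Bcl2 UMI was found in 44.0% (40.2 to 47.8) of cells with an Il7r UMI and 34.2% (32.5 to 36.0) of cells without in WT run 1. Run 2 gave 42.6% (38.9 to 46.4) and 34.7% (33.0 to 36.4), and BKO gave 27.6% (24.7 to 30.6) and 24.3% (23.2 to 25.5). The intervals were apart in both WT runs and overlapped in BKO. Cells with an Il7r UMI were 19.2%, 18.9% and 14.6% of thinned Tfh cells.

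Bcl2a1b showed the reverse in Tfh cells: 34.5%, 35.1% and 38.7% of cells with an Il7r UMI and 41.3%, 41.8% and 50.1% of cells without held one of its UMIs, and the intervals were apart in all 3 samples. In Tfr cells the split did not separate Bcl2 (36.1% against 37.6%, 36.1% against 38.4% and 23.3% against 25.4%, with overlapping intervals). Tfr cells with an Il7r UMI more often held a Bcl2l11 UMI in the WT runs, 9.58% (6.72 to 13.1) against 5.27% (3.98 to 6.82) and 9.69% (6.91 to 13.1) against 5.54% (4.24 to 7.09), but the intervals touched and BKO gave 5.57% against 4.94%. Mcl1 was found in 53.4% (48.4 to 58.4) against 42.8% (40.4 to 45.2) of BKO Tfr cells with and without an Il7r UMI, and in 44.8% against 46.3% and 43.7% against 44.7% in the WT runs. A split by Il2ra, the IL-2 receptor alpha chain, gave overlapping intervals for Bcl2 in every class and sample.

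**Figure D5:**
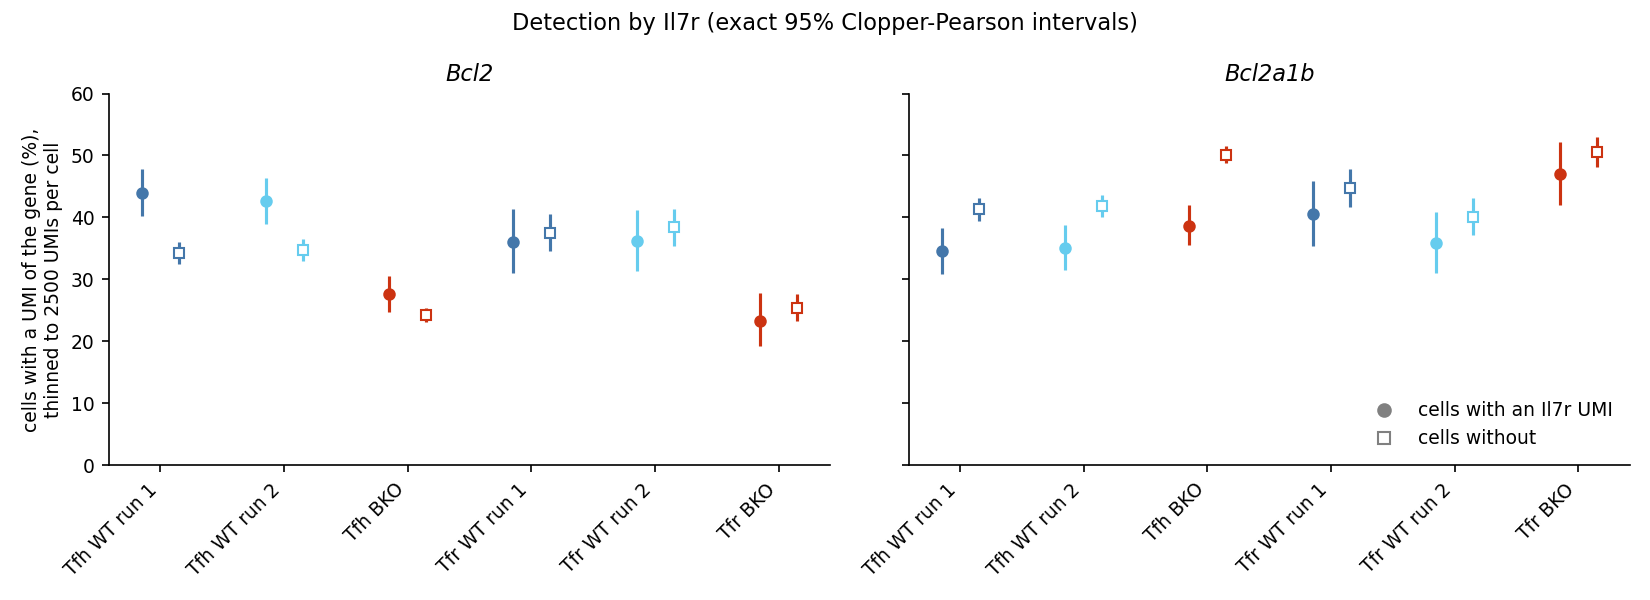
Share of cells in percent, thinned to 2500 UMIs each, with a UMI of Bcl2 (left) or Bcl2a1b (right), among cells with an Il7r UMI (filled circles) and without one (open squares) in each class and sample, with bars for exact 95% Clopper-Pearson intervals. In WT Tfh cells Bcl2 is found more often, and in Tfh cells of all 3 samples Bcl2a1b less often, beside an Il7r UMI.

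Genes that feed into or act after the family were followed as lists. Of 17 other BCL2 family genes only 4 reached the minimum in Tfh and 5 in Tfr cells, and 0 were called between genotypes or between classes. Those of highest level were Bnip3l, a mitophagy receptor, at 125, 124 and 147 CPM in Tfh cells, Bnip2 at 60.5, 58.0 and 55.0 CPM, Bad, a BH3-only gene, at 26.3, 24.1 and 25.8 CPM, and Bcl2l13 at 28.0, 27.5 and 22.0 CPM. The mitochondrial death pathway had 0 of 14 measured genes called in any comparison. Cycs, the gene for cytochrome c, had BKO to WT ratios of 0.11 in Tfh and 0.13 in Tfr cells, and Xiap, a caspase inhibitor, -0.18 and -0.16. Vdac2, an outer membrane channel, was at 0.15 and 0.19, and Birc6, an inhibitor of apoptosis with 149 kb of intron, was at -0.32 and -0.30.

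The death receptor list had 0 of 7 measured genes called between genotypes. Fas, the receptor by which FAS ligand kills germinal centre cells, was at 59.6, 61.2 and 84.3 CPM in Tfh cells, a ratio of 0.48 short of the rule, and at 0.37 in Tfr cells. Casp8, the caspase that Fas engages, was at -0.17 and -0.05, and its inhibitor Cflar at -0.20 and -0.14. Tnfrsf1b, the gene for TNF receptor 2, was called higher in Tfr than in Tfh cells (1.37, 1.47 and 2.13).

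In the p53 list 1 of 7 measured genes, Sesn1, a stress-response gene, was called lower in BKO Tfh cells (-0.66, with 94.5 kb of intron) and 0 in Tfr cells, and Sesn1 was called higher in Tfr than in Tfh cells (0.89, 0.86 and 1.16). Trp53inp1 was at -0.02 and 0.09, Btg2 at -0.21 and -0.38, and Mdm4 at -0.13 and -0.14 between genotypes.

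The survival cytokine list had 0 of 14 measured genes called in Tfh and 1 of 16 in Tfr cells, Il6ra, the IL-6 receptor, which was lower in BKO (140, 143 and 92.2 CPM; -0.62). Its signalling partner Il6st was at 0.25 in Tfh and 0.13 in Tfr cells. Il2rg, the common gamma chain, was at 0.04 and 0.09, and Jak1 at -0.22 and -0.21 with 106 kb of intron. Stat5b, the factor that carries IL-2 and IL-7 signals to Bcl2, was at -0.27 and -0.40 with 64.5 kb of intron. Il2ra was called higher in Tfr than in Tfh cells (2.13 and 2.34 in the WT runs, and more in BKO), as was Pim1, a kinase induced by cytokines (1.21, 1.26 and 1.36).

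FOXO factors are known to drive Bcl2l11 and Bbc3. Foxo1 was at 181, 182 and 145 CPM in Tfh and 256, 252 and 206 CPM in Tfr cells. These gave ratios of -0.33 and -0.30, with 76.2 kb of intron. Klf2 and Cited2 were called lower in Tfr than in Tfh cells, Klf2 by -0.81, -0.85 and -1.13 and Cited2 by -0.69, -0.62 and -0.60. The list of MCL1 turnover genes and BIM partners had 0 of 7 called in any comparison. Huwe1, a ligase that marks MCL1 for degradation, was at -0.24 and -0.31 with 111 kb of intron. Dynll1, which holds BIM at the cytoskeleton, was at -0.03 and 0.14.

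Of 10 NF-kB genes 0 were called between genotypes in Tfh and 1 in Tfr cells, Nfkbia, the gene for the inhibitor IkB-alpha, which was higher in BKO (267, 260 and 436 CPM; 0.72). In Tfh cells Nfkbia was at 159, 149 and 222 CPM (0.53). Nfkb1 was at -0.29 and -0.45 with 94.8 kb of intron, Rel was at -0.26 and -0.20, and Traf1 at -0.02 and 0.25. All 10 had a higher mean in Tfr than in Tfh cells, and Nfkbia and Nfkb2 met the rule. The median difference of the list was 0.40, against 0.00 over all measured genes.

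Between genotypes the median ratio of the 8 members measured in Tfh cells was 0.00 and that of the 9 measured in Tfr cells 0.12, against -0.10 and -0.09 over all measured genes. Scaling by TMM raised every ratio by 0.16 in Tfh and 0.11 in Tfr cells.

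Finally, the genes whose level over the 10 large subclusters, centred within each sample, was most like that of each member were looked up among 6169 candidates, as a description over 30 values that share libraries and depth. For Bcl2 these were Csgalnact1 (Pearson r of 0.93), Trps1 (0.86) and Arhgap5 (0.84). Bcl2l1 was most like Icam1 (0.93), Il2rg (0.90) and Pim1 (0.90), and Mcl1 most like Tnfrsf1b (0.93), Il2rb (0.92) and Zcchc18 (0.92). For Bcl2a1b they were Gadd45b (0.90), Cebpa (0.89) and Hspa5 (0.89), and for Bcl2a1d Mat2a (0.94), Ddx21 (0.90) and Gnl3 (0.89). Bax was most like Sf3b5 (0.92), Nhp2 (0.91) and Psma4 (0.91), Bak1 like Pycard, Lgals1 and Myo1g (0.82 to 0.81), and Bcl2l11 like Mier1 (0.76), P2ry10 (0.73) and Phyh (0.73). Within the family, Bcl2l1 and Mcl1 had an r of 0.81, whereas Bcl2 had 0.17 with Bcl2l1, -0.04 with Mcl1 and 0.08 with Bcl2a1b.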

How the data were processed

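Follicular T cells were profiled by 10x 3′ sequencing. The deposited matrices hold raw UMI counts per gene and barcode, made by the authors with cellranger 7.0.1 for WT and Cell Ranger 4 for BKO per the file headers, on mm10 per the submitters' processing notes; classes and subclusters come from the authors' deposited metadata tables, whose barcodes were tied to samples by matching barcodes and UMI totals. For WT run 2 cells the barcodes alone decided: all 5117 were found in the run 2 matrix and 5077 in that of run 1. Their table totals equalled those of neither matrix. The run 2 matrix totals used here were a median of 1.52 times the table totals (r of 0.996). Those of run 1 lay closer, at 0.918 times (r of 0.999). No source used here states whether intronic reads were counted or doublets removed, and no doublet caller was run. Counts were summed per sample, class and subcluster in Python 3.11.15, and edgeR 4.0.16 supplied TMM factors. Expected replicates proved to be 1 library per genotype, so genes were called by size (20 CPM, 1.5 times). Cells were thinned with a fixed seed. Gene spans and intron lengths are from GENCODE (GRCm38), and 9 members had a RefSeq promoter entry. The members and lists were chosen with earlier results of these data known. The text names all members, list genes past the rule or among the 4 highest of their list (except a gene not reported here), and the 3 most alike genes per measured member.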

Additional observations from a re-analysis of the deposited data

Results flagged for a closer look

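The difference between Tfr and Tfh cells for Bcl2 was 0.04 and 0.01 on the log2 scale in the WT runs and -0.17 in BKO, so BKO lay on the other side of 0 from both runs of the WT library. With 1 library per genotype the difference between genotypes was not tested. After thinning to 2500 UMIs the WT values were -0.05 and -0.04 and that of BKO -0.13.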

How the results depend on the processing

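No paired analysis was possible because WT and BKO share a single replicate number, the WT samples are 1 library and no fit left residual degrees of freedom. Genes higher in BKO Tfh cells numbered 26; TMM gave 63, median-of-ratios scaling 58, no minimum 2207, equal subcluster weights 15, and leaving out a WT run 33 to 56 (56 without run 2). Genes lower there numbered 161; the same settings gave 83, 86, 2950, 44 and 165 to 180, and taking off the intron trend 80. In Tfr cells 58 were higher, against 104, 102, 2172, 28 and 76 to 95 (95 without run 2), and 157 lower, against 74, 75, 2414, 49 and 190 to 201, and 47 with the intron trend off. The single member lower in Tfh cells became 0 with TMM, median-of-ratios scaling, a pseudocount of 5 CPM, the intron trend off or WT cells of 1 class in both runs. It became 2 with thinned cells, equal weights or Tfh subclusters 5 and 6 left out, and 1 to 2 with a WT run left out (2 without run 2); without Tfh subcluster 1 it was Bcl2 (-0.61) and not Bcl2l1 (-0.57). The single member lower in Tfr cells became 0 with the intron trend off or equal weights, and was 1 without either WT run. Members higher were 0 in both classes and 0 without either run. Genes higher in Tfr than Tfh cells numbered 154, against 1052 with no minimum, 250 without Tfh subcluster 1 and 168 to 175 without a sample, and 122 lower, against 1368 and 130 to 151. Members higher were 1, against 2 with no minimum, and members lower 0. With no minimum, more genes enter by construction; otherwise the cause was not tested. Depth limits Pmaip1 and, in Tfh cells, Bbc3, at 7.41 to 11.6 CPM.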
